A study of Drosophila simulans and Drosophila sechellia and Drosophila simulans x Drosophila sechellia with 72 samples.

Results

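The genes described here are the Cpr, Ccp84 and Edg cuticle protein genes of 2 fly species and their hybrids. They were taken by symbol, as every gene whose name begins with Cpr and a digit or with Ccp84, or has the form Edg, digits and E. The rule found 58 of the 7836 genes in the table, namely 51 Cpr genes, 6 Ccp84 genes (Ccp84Ab to Ccp84Ag) and Edg78E. The larval cuticle (Lcp), adult cuticle (Acp) and Tweedle (Twdl) families are not among them. Their symbols carry the place of the gene on the polytene chromosomes of D. melanogaster, and 25 places are represented. Place 49A holds 8 of the genes, 47E and 84A hold 6 each, 65A holds 5, and 64A and 76B hold 4 each.

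The insect cuticle is a layered sheet of chitin and protein that the epidermis secretes and replaces at each moult. Proteins of the Cpr family share the Rebers and Riddiford consensus, a domain that binds chitin, and each stage and body region of a fly uses its own selection of them. Pulses of the steroid hormone ecdysone time the switch from one selection to the next. The Edg genes take their name from that dependence (ecdysone-dependent gene), and Edg78E encodes a protein of the pupal cuticle in D. melanogaster. The Ccp84 genes form a cuticle protein cluster near the Antennapedia complex of that species. For most single Cpr genes only the membership of the family is stated here.

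RNA was measured in hybrids of D. simulans and D. sechellia, in D. sechellia, which lives on noni fruit, and in D. simulans, a generalist. Each of the 72 libraries came from the homogenate of 10 whole adult females or of 10 whole third-instar larvae labelled female, kept at 20 °C under 16 h of light and 8 h of dark. Flies had medium with octanoic acid (O), a toxic fatty acid of noni fruit, or standard medium (S) in the previous generation and in the current one, so that OS means octanoic acid before and standard medium now. The 4 media histories, 2 stages and 3 genotypes make 24 groups of 3 biological replicates. How separate the cultures of those replicates were is not stated, so that p-values measure the spread between these libraries. The labels give neither the direction of the hybrid cross nor the dose of octanoic acid. Levels are FPKM (fragments scaled by transcript length and library size), which are per length and can be compared between genes. A hybrid level is the sum of its D. sechellia and D. simulans allele columns. Differences are on the log2(FPKM + 1) scale, which understates changes of low genes, and are given with their SE. A difference was called when its limma p, adjusted over all genes tested by the Benjamini-Hochberg method, was under 0.05.

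The stage labels were checked on marker genes. The summed level of the female genes Yp1, Vm26Aa and Vm26Ab lay between 6350 and 29962 FPKM in adults and between 0 and 26.0 FPKM in larvae. The testis genes dj, Mst98Cb and aly summed to 7.39 to 280 FPKM in larvae, although these are labelled female, and to at most 0.410 FPKM in adults. Column totals differed between genotypes, with 1137760 to 1515240 FPKM in D. sechellia larvae against 442983 to 543443 FPKM in D. simulans larvae, and comparisons of genotypes carry this scale. In the hybrid larval library SS replicate 2, Cpr47Ec stood at 2466 FPKM, against 0 to 75.6 FPKM in the other 11, and Cpr47Eb at 1787 FPKM, against 8.07 to 68.2 FPKM. The D. sechellia adult libraries OS replicates 1 and 3 held 399 and 476 FPKM of the larval storage protein gene Lsp1beta, against 47.3 to 176 FPKM in the other 10. Of the larval marker genes Lsp1beta, Lsp1gamma, Lcp1 and Lcp4, only Lcp4 stayed under 1 FPKM in all 12 D. sechellia adult libraries (at most 0.569 FPKM). The larval member Cpr12A was listed at 0 in each of them, while the larval member Cpr78E was measured in each. Counts of calls without each of these 3 libraries differed by at most 2 genes from those given below, except that the ratios of species and alleles in larvae differed for 14 genes instead of 10 without the hybrid library.

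Adults and larvae relied on different cuticle protein genes, and in each class a few genes held most of the transcript. Summed over the 58 genes, levels ranged from 2683 to 8013 FPKM in hybrid adults, 1630 to 8111 FPKM in D. sechellia adults and 576 to 1608 FPKM in D. simulans adults. In larvae the sums were 5811 to 20766 FPKM in hybrids, 7500 to 17211 FPKM in D. sechellia and 4232 to 10530 FPKM in D. simulans. As a share of the column total the median was 0.418%, 0.312% and 0.210% in hybrid, D. sechellia and D. simulans adults, and 1.32%, 0.845% and 1.46% in the larvae of the same 3 genotypes. The shares of D. sechellia and D. simulans larvae thus stood in the opposite order to their summed FPKM. In bulk samples, fewer cells of a type and less RNA per cell cannot be told apart.

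Cpr49Ae, Cpr49Ab and Cpr65Au led in the adults of both species. Cpr49Ae averaged 1378 ± 801 FPKM in D. sechellia adults and 448 ± 188 FPKM in D. simulans adults (SD, n = 12 each). Cpr49Ab averaged 1166 ± 563 FPKM in D. sechellia adults and 171 ± 60.7 FPKM in D. simulans adults. In hybrid adults Cpr49Ab stood alone at the top with 3078 ± 1088 FPKM, and Cpr65Au came next at 372 ± 188 FPKM. Cpr49Ab in hybrids, at 1886 to 5101 FPKM, did not overlap with Cpr65Au, at 201 to 818 FPKM, whereas Cpr49Ae, Cpr49Ab and Cpr65Au overlapped in D. sechellia adults. The other genes of 100 FPKM or more were Cpr100A in D. sechellia adults, and Cpr62Bb, Cpr51A, Cpr49Ae and Cpr100A in hybrid adults. Genes with a mean of at least 10 FPKM numbered 15 in hybrid, 18 in D. sechellia and 8 in D. simulans adults.

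Larvae of all 3 genotypes had Cpr78E first and Cpr49Ac second. Cpr78E averaged 8910 ± 3186 FPKM in hybrid larvae, 5885 ± 1823 FPKM in D. sechellia larvae and 3221 ± 1539 FPKM in D. simulans larvae. Cpr49Ac averaged 1459 ± 782, 2551 ± 810 and 2849 ± 1816 FPKM in the same order. The lowest hybrid library for Cpr78E (4515 FPKM) lay above the highest for Cpr49Ac (2851 FPKM), while in D. simulans larvae the ranges overlapped, at 1345 to 5630 FPKM for Cpr78E and 641 to 7168 FPKM for Cpr49Ac. Behind them came Cpr47Eg, Cpr57A, Cpr47Ec, Cpr12A, Cpr49Af, Cpr60D, Cpr51A and Cpr47Eb in D. sechellia, at means of 119 to 752 FPKM whose ranges overlapped widely. In D. simulans larvae Cpr65Aw (338 ± 440 FPKM), Cpr49Af (209 ± 200 FPKM) and Cpr57A (164 ± 77.6 FPKM) were the only others above 100 FPKM.

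At the other end, 12 of the 58 genes had a mean under 1 FPKM in each of the 6 classes of stage and genotype. Among them, Ccp84Ae, Cpr23B, Cpr30F, Cpr65Eb and Cpr76Ba stayed under 1 FPKM in every column. The 12 include Ccp84Ac, Ccp84Ae and Ccp84Af. In all, 14 of the 58 were too low in the parental libraries to be tested for stage. FPKM hold no read counts, so a gene listed at 0 is not shown to be silent.

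**Figure D1:**
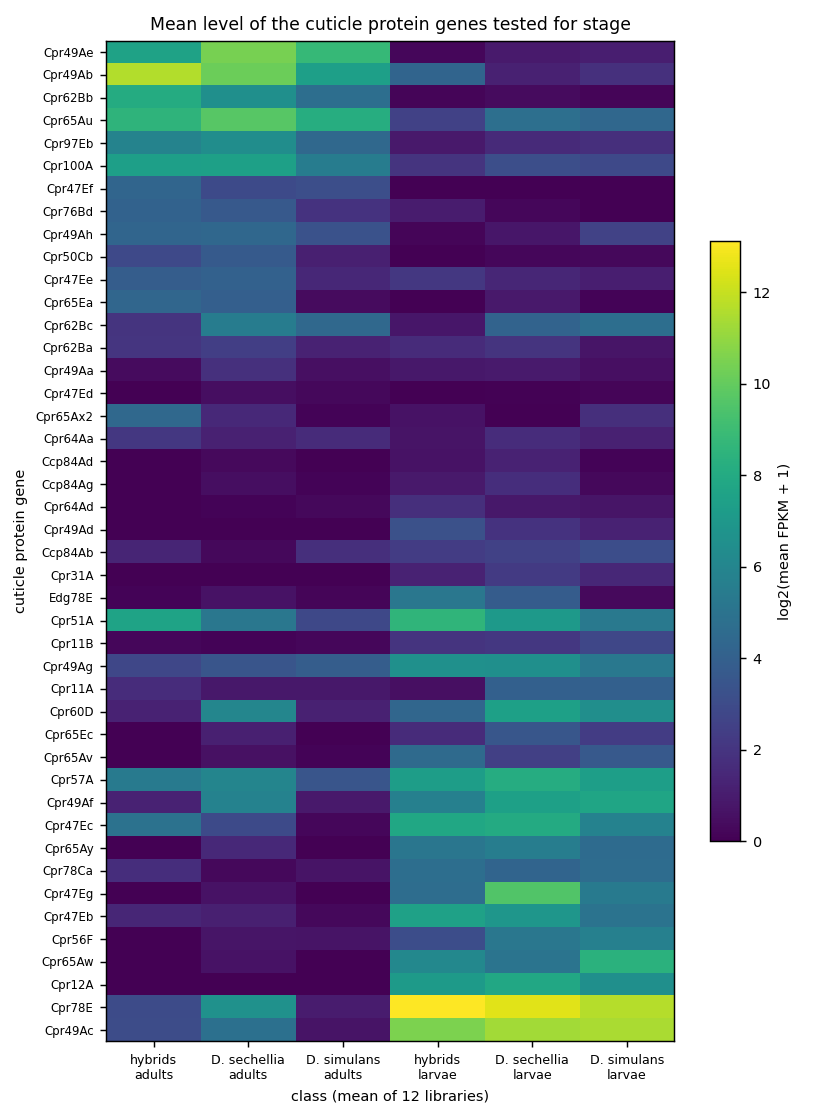
Mean level, as log2(mean FPKM + 1) by colour, of the 44 cuticle protein genes tested for stage (rows, ordered by their mean stage difference in the 2 species) in the 6 classes of 12 libraries each (columns, adults left of larvae). Cpr49Ae and Cpr49Ab at the top were bright in adults, and Cpr78E and Cpr49Ac at the bottom were bright in larvae. Among adults, Cpr78E, Cpr60D and Cpr49Af were brightest in D. sechellia.

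Stage separated most of the measured genes, and both directions occurred. In D. sechellia 40 of the 44 that passed the filter on low values were called, 15 higher and 25 lower in adults, where 80.9% of all genes tested were called (44.2% higher and 36.6% lower). In D. simulans 35 of 44 were called, 11 higher and 24 lower in adults, against 78.1% of all genes (38.5% higher and 39.5% lower). In hybrids 31 of 41 were called, 13 higher and 18 lower, against 75.2% (49.7% higher and 25.5% lower). The shares called were thus near those of all genes. The median log2 difference of the cuticle protein genes, adults minus larvae, was -0.86 in D. sechellia (all genes 0.13), -1.05 in D. simulans (all genes 0.00) and -0.50 in hybrids (all genes 0.67). Rescaling columns by median ratios put the all-gene median of hybrids at -0.22 and gave 11 higher and 19 lower there.

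Of the genes higher in adults, 10 were called in both species and in hybrids: Cpr49Ae, Cpr49Ab, Cpr62Bb, Cpr65Au, Cpr100A, Cpr97Eb, Cpr76Bd, Cpr50Cb, Cpr47Ee and Cpr47Ef. Cpr49Ae showed the largest difference in each species, by 9.45 ± 0.32 in D. sechellia (adjusted p = 5.51e-25) and by 7.63 ± 0.32 in D. simulans (adjusted p = 5.16e-22). Its adult libraries, at 321 to 3101 FPKM in D. sechellia and 129 to 751 FPKM in D. simulans, lay far above the larval ones, whose means were near 1 FPKM. Cpr62Bb led in hybrids, by 7.88 ± 0.21 (adjusted p = 9.89e-19), and Cpr47Ee lost its call there on rescaling (0.66, adjusted p = 0.239).

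In both species 21 genes were lower in adults, 16 of them in hybrids too. Cpr78E differed by -5.93 ± 0.22 in D. sechellia, -10.51 ± 0.22 in D. simulans and -11.37 ± 0.54 in hybrids, and Cpr49Ac by -6.74 ± 0.28, -10.59 ± 0.28 and -8.33 ± 0.34. Cpr12A was the gene with the largest fall in D. sechellia (-7.85 ± 0.16, adjusted p = 9.42e-32), with 0 FPKM in every adult library and 166 to 326 FPKM in larvae. Cpr12A also fell in D. simulans (-6.30 ± 0.16, adjusted p = 1.20e-28), where the larval libraries spanned 26.9 to 176 FPKM. Edg78E was lower in D. sechellia adults (-3.17 ± 0.14, adjusted p = 5.34e-21) and in hybrid adults (-4.65 ± 0.47, adjusted p = 1.54e-08). In D. simulans, where it reached at most 0.533 FPKM in larvae, its difference was -0.20 (adjusted p = 0.213). Of the Ccp84 genes, Ccp84Ab was lower in adults of both species (-2.05 ± 0.29 and -1.15 ± 0.29), and Ccp84Ad and Ccp84Ag were called in D. sechellia, at -0.77 and -0.95.

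Genes of 1 place did not always share a direction. At place 49A, D. sechellia adults were higher for Cpr49Aa, Cpr49Ab, Cpr49Ae and Cpr49Ah and lower for Cpr49Ac, Cpr49Ad and Cpr49Ag. At place 47E, Cpr47Ee and Cpr47Ef were higher in adults of both species while Cpr47Eb, Cpr47Ec and Cpr47Eg were lower. At 84A the called genes were all lower in adults. Positions in the genomes of these species were not used here.

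The size of the stage difference itself differed between the species for 27 of 44 genes, against 52.7% of all genes tested (31% with a higher and 21.7% with a lower value in D. sechellia). For 20 of the 27 the difference of adults minus larvae was higher in D. sechellia, and for 7 lower. The median of this difference was 0.67 over the 44 and 0.09 over all genes. Cpr49Af differed most, by 5.73 ± 0.74 (adjusted p = 4.73e-08). It stood at 22.5 to 72.7 FPKM in D. sechellia adults and at 0 to 1.71 FPKM in D. simulans adults, while the larvae of the 2 species overlapped, at 9.56 to 696 and 11.7 to 685 FPKM. Cpr60D followed the same course (4.09 ± 0.72, adjusted p = 1.25e-05). Neither gene was called for stage in D. sechellia, at -0.38 ± 0.52 and -0.26 ± 0.51.

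Cpr78E (4.57 ± 0.31), Cpr65Aw (3.89 ± 0.69), Cpr49Ac (3.85 ± 0.39) and Cpr49Ab (3.18 ± 0.35) also had a higher adult-minus-larva difference in D. sechellia. For Cpr49Ab this was a larger excess in adults, and for Cpr78E, Cpr65Aw and Cpr49Ac a smaller deficit. Edg78E went the other way by -2.97 ± 0.21 (adjusted p = 1.18e-14), as did Cpr49Ag (-1.78 ± 0.25) and Cpr12A (-1.55 ± 0.23). Cpr12A was too low in adults to be tested between the species. Its larval species difference was 1.51 as deposited, 0.86 after rescaling and 0.08 with every column scaled to the same total. The size of its stage value therefore rests on the scale. Cpr65Ax2 was the 1 gene called in opposite directions, with 1.12 ± 0.28 in D. sechellia (adjusted p = 0.000588) and a negative difference in D. simulans (adjusted p = 0.00191). It has a near-identical copy in D. melanogaster, so that reads may be shared between copies and its values are uncertain. Beside the adult values, the larval marker genes Lsp1beta, Lsp1gamma, Lcp1 and Lcp4 summed to 82.0 to 882 FPKM in D. sechellia adults and to 0.836 to 18.6 FPKM in D. simulans adults. The part of those larval transcripts in the adult difference was not tested.

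**Figure D2:**
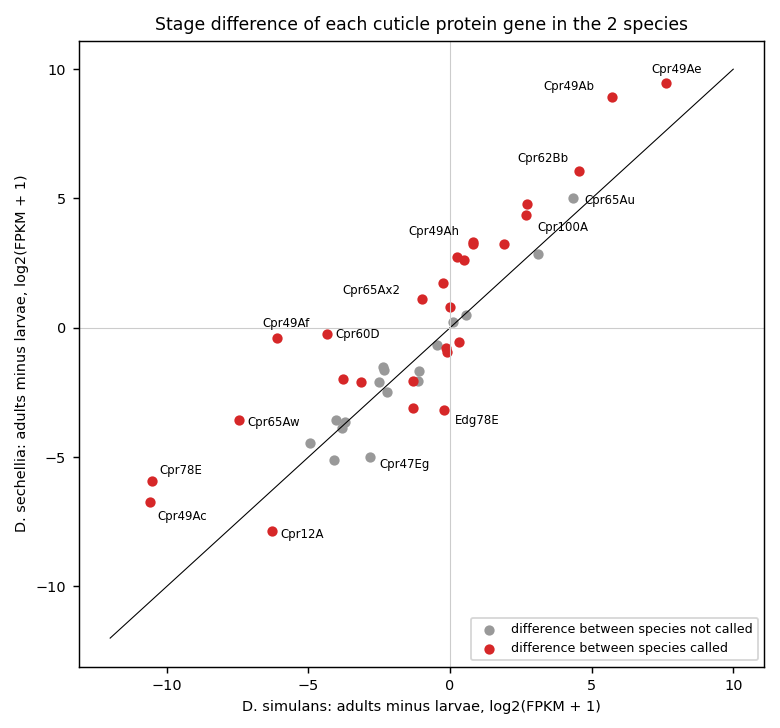
Stage difference of each of the 44 cuticle protein genes, adults minus larvae on the log2(FPKM + 1) scale, in D. sechellia (vertical axis) against D. simulans (horizontal axis). The line marks equal differences. Red points are the 27 genes whose difference between the species was called, with Cpr49Af, Cpr60D and Cpr78E far above the line and Edg78E and Cpr12A below it.

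Between the species, adults differed most in genes that D. simulans adults hardly held. In adults 28 of 35 genes were called, 26 higher and 2 lower in D. sechellia, where 82.9% of all genes were called (77% higher and 5.96% lower). The median log2 difference, D. sechellia minus D. simulans, was 1.16 over the 35 genes and 0.74 over all genes. After rescaling, the all-gene median was 0.04, and of the cuticle protein genes 21 were higher and 6 lower (median 0.86). Cpr78E stood at 39.9 to 163 FPKM in D. sechellia adults and 0.257 to 1.75 FPKM in D. simulans adults (5.53 ± 0.20, adjusted p = 2.02e-15). Cpr60D stood at 35.0 to 105 FPKM and 0.468 to 1.76 FPKM in the same order (4.77 ± 0.15, adjusted p = 9.21e-17). Cpr49Af differed by 4.93 ± 0.20, Cpr49Ac by 3.88 ± 0.29 and Cpr65Ea by 3.14 ± 0.40. For Cpr78E, Cpr60D, Cpr49Af and Cpr49Ac the 2 species did not overlap.

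The 2 D. sechellia adult libraries with the most Lsp1beta were also the highest for Cpr78E (163 and 144 FPKM in OS replicates 1 and 3), Cpr60D (105 and 101 FPKM) and Cpr49Ae (3101 and 2434 FPKM). The remaining 10 libraries of Cpr78E were still all above the highest of D. simulans adults. The genes lower in D. sechellia adults were Ccp84Ab, by -1.40 ± 0.26 (adjusted p = 5.25e-05), and Cpr49Ag, by -0.48 ± 0.15 (adjusted p = 0.00506). Cpr49Ag lost its call when hybrids were fitted too (adjusted p = 0.188), while after rescaling it was at -1.23 ± 0.16 (adjusted p = 1.41e-06). Cpr51A and Cpr57A were among the called genes at lower levels. Cpr51A stood at 17.5 to 62.8 FPKM in D. sechellia adults and 5.10 to 7.57 FPKM in D. simulans adults, and Cpr57A at 33.1 to 93.2 FPKM and 7.29 to 12.4 FPKM.

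Larvae of the 2 species were closer. There 21 of 39 genes were called, 15 higher and 6 lower in D. sechellia, against 67.9% of all genes (59.2% higher and 8.74% lower). The median was 0.41 over the 39 genes and 0.58 over all genes. On rescaling, the median of all genes went to 0.01 and that of the cuticle protein genes to 0.04, and calls became 10 higher and 13 lower. The split of directions in larvae therefore rests on the scale. Edg78E had the largest positive difference and kept its call on rescaling. It was measured at 7.91 to 21.4 FPKM in every D. sechellia larval library and at 0 to 0.533 FPKM in D. simulans larvae (3.40 ± 0.13, adjusted p = 2.23e-14). Cpr12A was higher by 1.51 ± 0.22 (adjusted p = 4.74e-06) and Cpr51A by 1.47 ± 0.33 (adjusted p = 0.000665). After rescaling these were 0.86 (adjusted p = 0.00162) and 0.82 (adjusted p = 0.039), and with every column scaled to the same total 0.08 and 0.05, so that their size rests on the scale.

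Cpr65Aw was lower in D. sechellia larvae by -3.40 ± 0.66 (adjusted p = 0.000131), with 0.968 to 130 FPKM there and 12.6 to 1619 FPKM in D. simulans larvae. Those ranges overlapped, since both species varied widely between libraries. Cpr49Ah was lower too (-1.59 ± 0.27, adjusted p = 3.46e-05). Cpr78E was higher by 0.96 ± 0.23 as deposited and by 0.30 after rescaling (adjusted p = 0.364). The sechellia mean of Cpr47Eg, 752 FPKM, came from 5 libraries of 832 to 3871 FPKM beside 7 of 0.924 to 7.95 FPKM, and its difference was not called (2.67 ± 1.34, adjusted p = 0.0861). Across stages, 10 genes were called higher in D. sechellia in both as deposited, and 4 of them, Cpr47Eb, Cpr51A, Cpr65Ea and Cpr65Ec, also after rescaling. As deposited, Cpr65Aw and Cpr65Ax2 were higher in its adults and lower in its larvae, and Cpr49Ag was the reverse.

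Hybrid adults lay outside both parents for several leading genes. The 2 comparisons share the hybrid libraries, so their calls are not independent. Against D. sechellia adults 23 of 37 genes were called, 4 higher and 19 lower in hybrids (all genes 74.8%, with 39.6% higher and 35.1% lower). Against D. simulans adults 17 of 37 were called, 12 higher and 5 lower (all genes 76.1%, with 59.1% higher and 16.9% lower), or 7 higher and 9 lower after rescaling. The medians were -0.52 against D. sechellia (all genes 0.07) and 0.23 against D. simulans (all genes 0.84).

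Cpr51A, Cpr49Ab, Cpr62Bb and Cpr47Ef were the 4 genes higher in hybrid adults than in D. sechellia adults, and were also called higher than in D. simulans adults. Cpr51A stood at 82.9 to 366 FPKM in hybrid adults, 17.5 to 62.8 FPKM in D. sechellia adults and 5.10 to 7.57 FPKM in D. simulans adults, so that every hybrid library lay above every parental one. Its log2 difference was 2.31 ± 0.20 against D. sechellia (adjusted p = 2.09e-11) and 4.60 ± 0.20 against D. simulans (adjusted p = 1.83e-18). Cpr62Bb, at 131 to 393 FPKM in hybrid adults against 40.9 to 149 FPKM in D. sechellia and 19.2 to 32.1 FPKM in D. simulans, differed by 1.54 ± 0.17 and 3.29 ± 0.17. Cpr47Ef was higher than in D. simulans as deposited (0.94 ± 0.27) and not after rescaling (-0.18, adjusted p = 0.565).

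The 3 genes that differed most between D. sechellia and D. simulans adults were low in hybrids. Cpr60D (-5.23 ± 0.32), Cpr49Af (-4.97 ± 0.31) and Cpr78E (-4.86 ± 0.49) were the genes with the largest falls against D. sechellia, with adjusted p from 1.54e-14 to 5.41e-10. Cpr60D lay between 0 and 8.34 FPKM in hybrid adults, and Cpr49Af between 0 and 6.65 FPKM. Cpr78E was listed at 0 in 6 of 12 hybrid adult libraries and reached 31.7 FPKM, below the 39.9 FPKM of the lowest D. sechellia library. Cpr62Bc and Cpr49Ae were lower in hybrid adults than in either parent, by -3.42 ± 0.41 and -2.95 ± 0.40 against D. sechellia and by -2.50 ± 0.41 and -1.46 ± 0.40 against D. simulans. For Cpr60D, Cpr49Af and Cpr62Bc the D. sechellia allele was listed at 0 in all 12 hybrid adult libraries. Their hybrid sums thus hold the D. simulans allele only, and how reads were given to an allele is not stated.

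**Figure D3:**
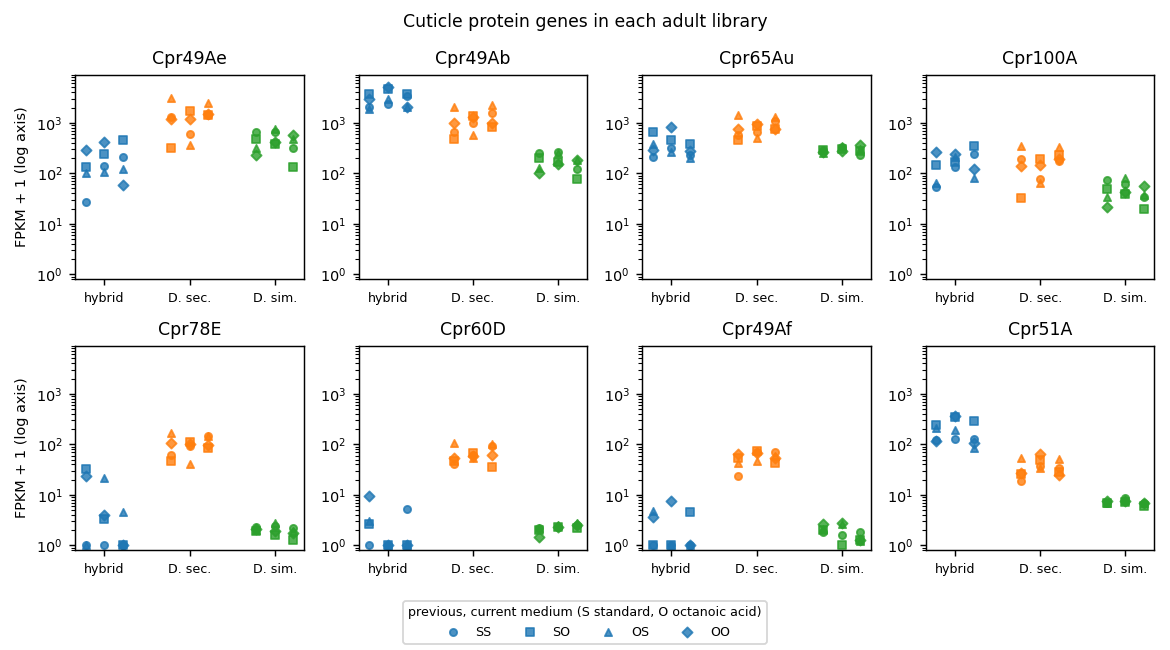
FPKM + 1 (log axis) of 8 cuticle protein genes in each of the 12 adult libraries of hybrids, D. sechellia and D. simulans; a point is 1 library, its symbol the media history. Cpr51A and Cpr49Ab were highest in hybrids, while Cpr78E, Cpr60D and Cpr49Af were highest in D. sechellia, and media symbols were mixed within each genotype.

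In larvae, 25 of 41 genes were called against D. sechellia, 4 higher and 21 lower in hybrids (all genes 63.7%, with 19.4% higher and 44.3% lower). Against D. simulans, 25 of 41 were called, 7 higher and 18 lower (all genes 65.5%, with 35.2% higher and 30.2% lower). The medians were -0.70 (all genes -0.40) and -0.42 (all genes 0.08). Cpr49Ab, an adult gene in the parents, stood at 18.0 ± 12.3 FPKM in hybrid larvae, higher by 2.82 ± 0.28 than in D. sechellia and by 2.33 ± 0.28 than in D. simulans. Cpr51A was higher by 1.57 ± 0.34 and 3.04 ± 0.34. Cpr60D, Cpr62Bc, Cpr49Af and Cpr56F were lower in hybrid larvae than in both parents. The D. sechellia allele of Cpr62Bc was listed at 0 in all 12 hybrid larval libraries, so that its hybrid sum holds the D. simulans allele only. For Cpr60D the differences were -4.99 ± 0.78 and -4.31 ± 0.78, and without hybrid library SS replicate 2, which held 218 FPKM while 8 of the others were listed at 0, they were -5.63 and -4.95. For Cpr49Af they were -2.90 ± 0.93 and -3.70 ± 0.93, or -3.61 and -4.41 without that library.

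In hybrid larvae Edg78E had 0, 31.6 and 79.9 FPKM as the lowest, median and highest hybrid value, was called higher than in D. simulans larvae (4.40 ± 0.40, adjusted p = 9.10e-11), and differed by 0.99 ± 0.40 from D. sechellia larvae (adjusted p = 0.031, lost in 6 of 36 fits that left out 1 library, with adjusted p up to 0.0785). With a pseudocount of 0.1 that difference was 0.78 and not called (adjusted p = 0.278). Cpr78E against D. sechellia larvae, at 0.58 ± 0.22 (adjusted p = 0.0252), lost its call in 4 of 36.

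Within hybrid females the 2 alleles of a gene share the same nucleus, and the allelic ratio was tested after each allele column was scaled to the same total. The testis genes dj, Mst98Cb and aly summed to 7.39 to 85.0 FPKM in hybrid larvae. Any part of males in the allele values of larvae was not tested. As deposited, D. sechellia allele columns summed to 766311 to 1034080 FPKM in adults, and D. simulans allele columns to 122009 to 192420 FPKM. The labels do not say how reads were given to an allele. In hybrid adults 11 of 25 genes were called, 6 with a higher D. sechellia allele and 5 with a lower one (all genes 50.4%, with 21.9% higher and 28.5% lower). In hybrid larvae 8 of 32 were called, 5 higher and 3 lower (all genes 50.9%, with 12.9% higher and 38% lower). Both counts rest on the scaling. With FPKM as deposited, 15 were higher and 4 lower in adults, and 12 higher and 3 lower in larvae. With 1 total shared by both alleles they were 14 and 5 in adults, and 12 and 3 in larvae. The median ratio was 0.26 in adults (all genes -0.11) and -0.04 in larvae (all genes -0.47).

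Cpr51A was the most unequal gene toward D. sechellia in adults, at 2.77 ± 0.20 (adjusted p = 3.70e-08). As deposited, its D. sechellia allele stood at 79.3 to 364 FPKM and its D. simulans allele at 1.27 to 7.96 FPKM. Cpr62Bb (1.51 ± 0.15) and Cpr49Ab (0.93 ± 0.08) leaned the same way, so that the 3 genes raised most in hybrid adults above D. sechellia each had a higher D. sechellia allele. Cpr65Au (-1.09 ± 0.23) and Cpr47Ef (-1.60 ± 0.28) had a lower D. sechellia allele after scaling. Without scaling their ratios were 1.37 and 0.66, so their direction rests on that step. Cpr62Bc (-3.76 ± 0.43), Cpr49Ag (-3.52 ± 0.56) and Cpr62Ba (-2.10 ± 0.51) were called lower by more after scaling. Both alleles of these genes averaged under 5 FPKM, and the D. sechellia allele of Cpr62Bc was listed at 0 in every hybrid adult library. In larvae Edg78E was the most unequal gene, at 5.09 ± 0.55 (adjusted p = 1.74e-06). Its D. simulans allele was listed at 0 in 11 of 12 hybrid larval libraries and its D. sechellia allele lay between 0 and 79.9 FPKM. Cpr47Eb (1.71 ± 0.41), Ccp84Ab (1.54 ± 0.54) and Cpr51A (1.05 ± 0.18) followed. Cpr78E, at 1.03 ± 0.06, had the smallest adjusted p of these (1.62e-09), with a D. sechellia allele of 3941 to 11550 FPKM and a D. simulans allele of 574 to 2458 FPKM. Cpr56F (-3.08 ± 0.57) and Cpr49Af (-2.47 ± 0.72) leaned toward D. simulans.

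The ratio between the species and the ratio between the alleles were set against each other in 1 fit. They differed for 20 of 37 genes in adults, 12 with a higher and 8 with a lower parental ratio (all genes 55.9%, with 22.5% higher and 33.3% lower), with a median of 0.28 (all genes -0.18). In larvae they differed for 10 of 42, 1 higher and 9 lower (all genes 41.7%, with 21.2% higher and 20.6% lower), with a median of -0.71 (all genes -0.15). The fit behind these counts had no term for library or media history. Both allele columns of a hybrid library entered it as separate samples, and its SE and p do not account for that pairing. In adults Cpr49Af (5.63 ± 0.69), Cpr60D (5.23 ± 0.65), Cpr78E (4.82 ± 0.87) and Cpr62Bc (3.35 ± 0.61) had a far higher parental than allelic ratio. The D. sechellia allele of Cpr49Af, Cpr60D and Cpr62Bc was listed at 0 in all 12 hybrid adult libraries, while D. sechellia adults averaged 54.8, 64.2 and 45.3 FPKM. The D. sechellia alleles of Cpr62Bc and Cpr11A were likewise listed at 0 in all 12 hybrid larval libraries, against 17.4 and 15.4 FPKM in D. sechellia larvae. Cpr51A (-1.75 ± 0.32) and Cpr62Bb (-1.12 ± 0.25) had a higher allelic than parental ratio. In larvae the same held for Ccp84Ab (-3.22 ± 0.73), Edg78E (-2.35 ± 0.62), Cpr49Ab (-1.92 ± 0.63) and Cpr78E (-1.51 ± 0.32). With FPKM as deposited, Edg78E was at -1.17 and not called (adjusted p = 0.0637).

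**Figure D4:**
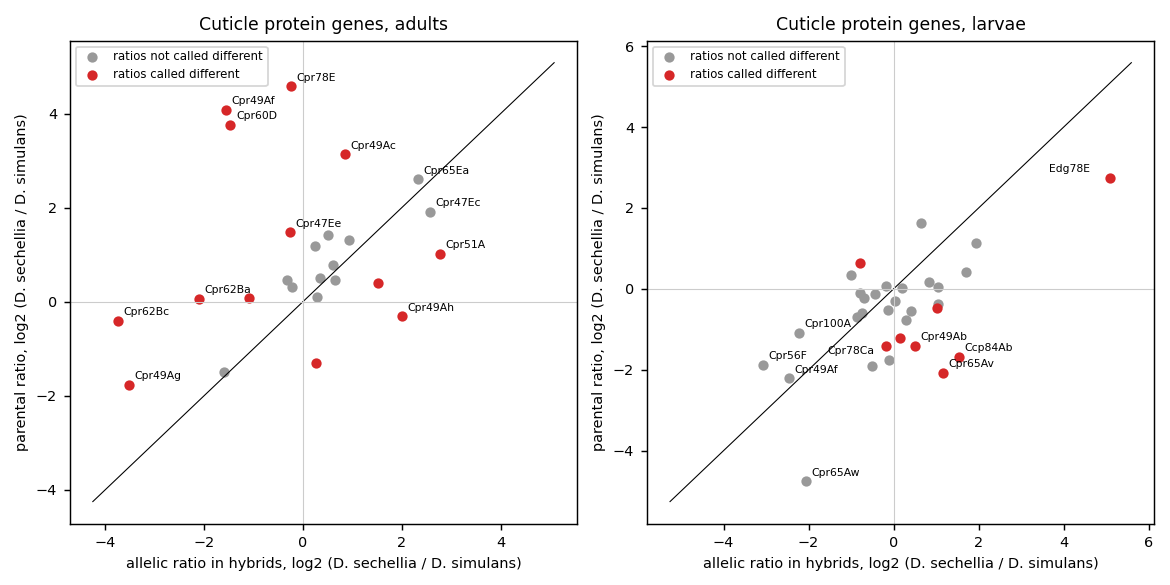
Parental ratio (vertical) against allelic ratio in hybrids (horizontal) of each cuticle protein gene, both log2 of D. sechellia over D. simulans with columns scaled to the same total, in adults (left) and larvae (right). The line marks equal ratios and red points are genes whose ratios were called different. Cpr49Af, Cpr60D and Cpr78E in adults lie far above the line, and Cpr51A in adults and Edg78E in larvae lie to the right.

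For media history none of these genes was called in the main fits. With 3 replicates in a group, a lack of calls does not show a lack of difference. In none of the 18 tests of the current medium, the previous medium or their interaction within a genotype and stage was a cuticle protein gene called by limma, nor in the 4 tests of a difference between the species. Of all genes, 0% to 0.0445% were called in these tests, with 0.0445% for the current medium in hybrid larvae (0.0296% higher and 0.0148% lower) and 0.0153% in D. simulans larvae, so that the genes do not stand out by this. At an unadjusted p under 0.05, the current medium gave 6 of 23 genes in hybrid adults, 3 of 32 in D. simulans larvae, 2 of 23 in D. simulans adults, 2 of 30 in hybrid larvae, 1 of 37 in D. sechellia larvae and 0 of 32 in D. sechellia adults. Of all genes tested, 11.2%, 2.15%, 2.09%, 4.42%, 1.58% and 0.916% had such a p in these 6 tests, in the same order. The previous medium gave at most 2 such genes in each class other than D. simulans larvae (all genes 1.54% to 4.19%), and the interaction gave at most 4 (all genes 0.49% to 6.22%). The median difference for the current medium, octanoic acid minus standard, was 0.66 in hybrid adults (all genes -0.16) and -0.60 in hybrid larvae (all genes 0.01). It was -0.15 in D. sechellia adults, -0.34 in D. sechellia larvae, -0.31 in D. simulans adults and -0.33 in D. simulans larvae, beside all-gene medians of -0.04 to 0.06.

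The previous medium in D. simulans larvae came nearest to the threshold. There 22 of 32 genes had an unadjusted p under 0.05, as had 1727 of all 6525 genes tested (26.5%), and 0 were called. The median difference, previous octanoic acid minus previous standard medium, was 0.96 over the 32 genes, 25 of them positive, and -0.16 over all genes. Cpr47Eg had the largest difference, at 4.10 ± 1.16 (adjusted p = 0.118). It stood at 130, 1.07 and 49.5 FPKM in OS and 1.65, 83.97 and 227.6 FPKM in OO larvae, against 1.53, 0.96 and 0.542 FPKM in SS and 0.478, 0.461 and 0.691 FPKM in SO larvae. High values thus occurred only after octanoic acid, and in 4 of those 6 libraries. Cpr97Eb had the smallest p, at 0.98 ± 0.20 (adjusted p = 0.118). Without D. simulans OO replicate 2, 15 of the genes were called, and without OS replicate 2, 1 was. The share of all genes called in those reduced fits was not counted, so these calls are not shown to be particular to the cuticle protein genes.

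Genes outside the family were also measured in those larvae, and those given here were not called and did not share a direction. ImpE2, an ecdysone-inducible gene, stood at 70.4, 194 and 115 FPKM in OS and 21.3, 413 and 153 FPKM in OO larvae, against 349, 197 and 394 FPKM in SS and 633, 490 and 647 FPKM in SO larvae (-1.87, adjusted p = 0.121). The tanning gene ple, which encodes tyrosine hydroxylase, differed by -3.88 (adjusted p = 0.121). The late larval genes Lsp1beta and Fbp2 differed by 0.48 (adjusted p = 0.211) and -0.11 (adjusted p = 0.711). The larval cuticle genes Lcp4 and Lcp1 differed by 1.92 (adjusted p = 0.118) and 0.81 (adjusted p = 0.340). The part of these genes in the values of the cuticle protein genes was not tested. In D. sechellia larvae the previous medium gave a median of -0.08 over 37 genes with 1 at an unadjusted p under 0.05. The difference between the species had 12 of 39 genes at an unadjusted p under 0.05 and 0 called, where 21.6% of all genes had such a p.

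Replicate larvae of 1 group differed more in these genes than in the rest of the transcriptome. Among genes with a mean of at least 5 FPKM, the median SD within groups on the log2 scale was 1.74 in hybrid, 0.989 in D. sechellia and 0.790 in D. simulans larvae, against 0.754, 0.321 and 0.392 over all genes. In adults it was 1.22, 0.752 and 0.360, against 0.548, 0.359 and 0.154. The difference between the cuticle genes and the rest was not tested. Cpr47Eg in D. sechellia larvae showed the widest swings, with 1744, 7.95 and 1.33 FPKM in SS, 4.01, 832 and 3871 FPKM in SO, 926, 1634 and 0.924 FPKM in OS and 1.72, 3.67 and 3.07 FPKM in OO larvae. Each medium but OO had libraries of both kinds. Cpr12A in the same libraries varied only between 166 and 326 FPKM.

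Many of the genes moved together between libraries of a class. Spearman's rho between 2 of the genes across the 12 libraries had a median of 0.689 over 210 pairs in D. sechellia adults and 0.759 over 66 pairs in D. simulans adults. In larvae it was 0.371 over 210 pairs and 0.490 over 253 pairs. In hybrids it was 0.168 in adults and 0.0986 in larvae. These values are a description of libraries that differ in depth and medium as well. The gene outside the family whose order over the 12 D. simulans larval libraries was most like the median profile of the 32 measured genes was ine, with rho = 0.993, and the larval cuticle gene Lcp65Ab2 had the same value. In D. sechellia larvae it was CG11236, with rho = 0.972. Genes with a mean of at least 5 FPKM, members included, numbered 5007 in D. simulans and 5468 in D. sechellia larvae. The highest of so many values over 12 libraries is large by selection, so these genes are named as a description only.

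Libraries of D. simulans larvae with less ImpE2 held more of most of these genes, with a negative r for 19 of 23. Of 44 relations tested in the larvae of the 2 species, 3 of 21 in D. sechellia had an adjusted p under 0.05 on Pearson's r, 2 of them negative, and 12 of 23 in D. simulans, 10 of them negative. On Spearman's rho the counts were 8 of 21 in D. sechellia and 16 of 23 in D. simulans, and the contrast between the species was not tested. In D. sechellia larvae r was negative for 17 of 21 genes. The median r was -0.54 in D. sechellia and -0.64 in D. simulans larvae. Over all genes of at least 5 FPKM, r with ImpE2 was negative for 31.9% in D. sechellia (median 0.23) and for 25.6% in D. simulans larvae (median 0.50). The share of all genes with an adjusted p under 0.05 was not counted. The numbers of cuticle protein genes under that threshold are therefore not shown to be particular to them. For Cpr60D in D. simulans larvae r was -0.85 (permutation p = 0.00051, adjusted p = 0.00374, n = 12 libraries) and Spearman's rho -0.94 (permutation p = 4e-05, adjusted p = 0.000733). Without the 2 libraries farthest from the median of ImpE2, r was -0.83. The permutations moved all 12 libraries freely and ignored media history and replicate number, so that these p-values may be too small. The part of the previous medium in this relation was not tested.

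**Figure D5:**
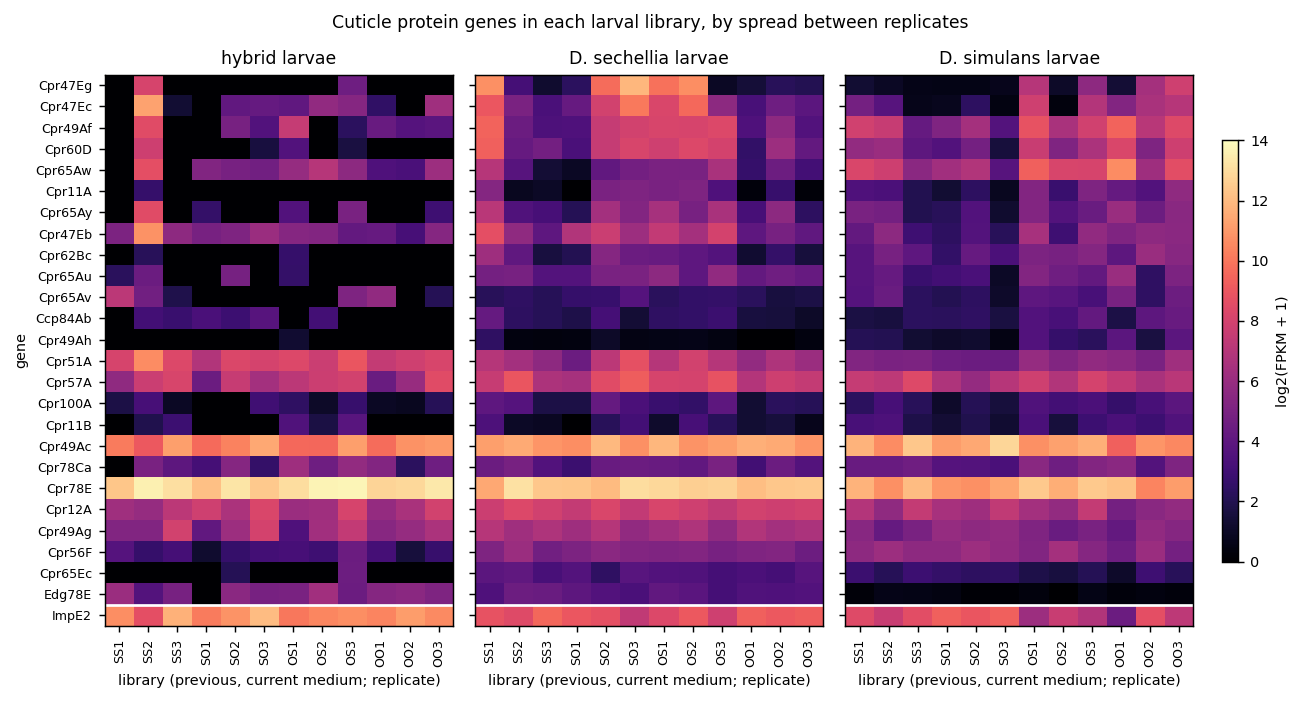
Level, as log2(FPKM + 1) by colour, of 25 cuticle protein genes and, below the white line, ImpE2 in each of the 12 larval libraries of hybrids, D. sechellia and D. simulans, in rows ordered by their spread between replicates. Cpr47Eg at the top switched between under 10 FPKM and 832 FPKM or more in D. sechellia, hybrid library SS2 stood out over the upper rows, and Edg78E was dark across D. simulans.

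Other genes of cuticle formation were also more often lower than higher in adults. Of all genes tested for stage, 36.6% were lower and 44.2% higher in D. sechellia adults, and 39.5% and 38.5% in D. simulans adults. The gene Pu is on both the list of other cuticle genes and the tanning list below. Of 23 tested genes among the 37 of the Lcp, Acp, Twdl and other cuticle families, 15 were lower and 3 higher in D. sechellia adults (median -1.37), and 17 lower and 2 higher in D. simulans adults (median -1.80). The larval cuticle genes Lcp4 and Lcp1 fell by 12.44 and 11.45 on the log2 scale in D. sechellia, and the adult cuticle gene Acp65Aa was higher by 10.73. Of 22 genes of chitin synthesis and turnover, 14 were lower and 3 higher in D. sechellia adults (median -0.83), and 20 lower and 2 higher in D. simulans adults (median -1.52). Of 9 tanning genes, 7 and 6 were lower in the 2 species, and 1 and 0 higher. Between the species, adults of D. sechellia were higher for 12 of 15 other cuticle genes (Pcp, a pupal cuticle gene, by 4.55), 17 of 21 chitin genes and 7 of 9 tanning genes, near the 77% of all genes that were higher as deposited. In larvae D. sechellia was higher for 9 of 22 other cuticle genes, 9 of 22 chitin genes and 8 of 9 tanning genes, where 59.2% of all genes were higher. After rescaling, 2376 genes were higher and 2174 lower in adults over all genes, and these lists were not counted again on that scale.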

How the data were processed

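The authors deposited FPKM of 7836 genes for 48 parental libraries and, in 48 more columns, for both alleles of the hybrids. FastQC, Bowtie2 and Cufflinks were used, per the submitters' processing notes. Their versions, the genome builds and annotation, and how reads were split by allele, were not given in the sources used here. FPKM hold no read counts, so depth is unknown; the steps of low values gave a relative depth that differed by at most 2.86-fold within a parental class.

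A gene entered a fit when 3 or more of its libraries held 1 FPKM or more. It was tested with limma 3.58.1 (R 4.3.3) on log2(FPKM + 1), with a mean-variance trend and Benjamini-Hochberg adjustment over all genes of the fit. Stage was fitted in the 48 parental libraries (hybrids in their own 24), species in the 24 parental libraries of a stage, hybrids against parents in the 36 libraries of a stage, and media in the 12 libraries of 1 genotype and stage. Allele columns were scaled to a total of 1000000. The allelic ratio was fitted with the library as a block. The fit of parental against allelic ratios scaled parental columns too and had no block for library and no term for media history. Correlations with ImpE2 used 100000 permutations of the libraries of a class, without regard to media history or replicate number. The steps were tested on simulated data. Other summaries used Python 3.11.15.

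The members, the gene lists and the tests were chosen with earlier results of these data known. Per comparison the rule for names took up to 12 called genes in each direction by size, with a mean of at least 5 FPKM. It then took the Ccp84 and Edg genes, the highest by level, and those listed at 0 in 1 class. Cpr65Ax2, genes at an unadjusted p and allelic calls at means under 5 FPKM were named after their values were seen. Alternatives were rescaling by median ratios, a pseudocount of 0.1, no filter, no trend, replicate number as a block, all 36 libraries of a stage, other allele scalings and each library left out. No sequences are shown.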

Additional observations from a re-analysis of the deposited data

Results flagged for a closer look

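The stage difference, adults minus larvae, differed between D. sechellia and D. simulans for 27 of the tested cuticle protein genes by limma's interaction test. Of all genes tested, 52.7% were called in the same test (31% with a higher and 21.7% with a lower value in D. sechellia). Genes with a higher value in D. sechellia and a mean of at least 5 FPKM were Cpr49Af (5.73), Cpr78E (4.57), Cpr60D (4.09), Cpr65Aw (3.89), Cpr49Ac (3.85), Cpr49Ab (3.18), Cpr49Ah (2.50), Cpr65Ea (2.48), Cpr50Cb (2.40), Cpr47Ee (2.12), Cpr97Eb (2.10) and Cpr62Bc (1.95), all as log2 differences. Edg78E (-2.97), Cpr49Ag (-1.78) and Cpr12A (-1.55) had a lower value in D. sechellia. The size of the Cpr12A value rests on the scale of the columns.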

How the results depend on the processing

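With all 36 libraries of a stage in 1 fit, calls for the current medium went from 0 to 2 genes in hybrid adults and to 1 in hybrid larvae, those for the previous medium in D. simulans larvae from 0 to 2, and those for the interaction in hybrid adults from 0 to 1. Allelic calls in adults went from 11 to 19 with FPKM as deposited and with a shared total for both alleles, and in larvae from 8 to 15 with either. The parental minus allelic count in larvae went from 10 to 16 with a shared total. Leaving out 1 library at a time gave 0 to 15 calls for the previous medium in D. simulans larvae and 0 to 3 for its difference between the species. The share of all genes called in those fits was not counted. Signs turned on rescaling for Cpr57A (-0.11) and Cpr47Ef (-0.18) in hybrid against D. simulans adults. They turned for the allelic ratio in adults of Cpr47Ef (0.66 as deposited, 0.70 with a shared total) and Cpr65Au (1.37 and 1.38), and for the parental minus allelic ratio of Cpr47Ee (-0.075) and Cpr65Au (-1.31) with a shared total. The cause was not tested beyond the scaling itself. Every other total of calls stayed within 1.5 times under the alternatives run, but counts by direction did not on rescaling: 21 higher and 6 lower instead of 26 and 2 for species in adults, 10 and 13 instead of 15 and 6 in larvae, and 7 and 9 instead of 12 and 5 for hybrid against D. simulans adults. Of the named values, 160 kept call and direction on rescaling and 9 lost the call, and with 1 library left out at a time 6976 kept it and 128 lost it. The labels do not say that a replicate number marks anything shared, and not every same-number pair correlated over 0.1 (range -0.75 to 0.78). In D. simulans larvae 14 of 18 such pairs did, with a mean of 0.34 against -0.16 for different numbers. With the replicate block, stage calls in D. sechellia were 41, stage difference calls 29 and larval species calls 23, and 170 of 171 named values kept their call. Depth is unknown, so low FPKM are of unequal precision.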
